A study of Mus musculus with 6 samples.

Results

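The 37 genes described here encode the integrin and laminin subunits measured in mid-gestation mouse hearts (E12.5). They were taken by a rule on the gene symbol from the 30619 genes of a table of read counts. The choice was made with earlier results of these data known. The rule took in integrin alpha genes (18), integrin beta genes (8) and laminin alpha, beta and gamma chain genes (5, 3 and 3). The related symbol Itgb2l, with 0 to 5 counts per library, did not match it. The study compared 3 wild-type control libraries (control 1 to 3) with 3 libraries of a Trim28 conditional knockout (CKO 1 to 3), all made from poly(A) RNA of mixed embryonic cardiac cells, and its title concerns trabeculation and compaction of the ventricular wall. The genotype field of the CKO samples reads knockdown, whereas their titles read CKO. The Cre driver, the exons deleted and the number of hearts behind a library are not given in the sources. Nothing states that libraries came from separate animals, and p-values then measure only how these samples spread, which may be in part technical. Sex-linked transcripts, given below, differed within each group, so the libraries of a group are not all repeats of the same RNA. They do not show whether every library came from a separate animal.

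Integrins are receptors made of 1 alpha and 1 beta chain that span the cell membrane and tie the extracellular matrix to the actin cytoskeleton. The alpha chain largely sets the ligand, and the beta chain carries the tail that binds talin and kindlin. Laminins are cross-shaped matrix proteins built from 1 alpha, 1 beta and 1 gamma chain, and they form the sheet on which basement membranes assemble. In the developing heart both families lie at the contacts between myocardium, endocardium, epicardium and the cardiac jelly.

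Trim28, the targeted gene and a co-repressor recruited by zinc finger proteins, was measured at 305, 391 and 443 CPM (read counts scaled to a common library size) in controls 1, 2 and 3 and at 172, 314 and 165 CPM in CKO 1, 2 and 3. The library labelled CKO 2 lay inside the control range, so the directions below rest on the labels. The log2 fold change (CKO over control throughout) was -0.81 with a standard error (SE) of 0.34, and it was not called by the main test (edgeR quasi-likelihood, adjusted p = 0.34), although limma-voom called it (adjusted p = 0.0165). A count over the whole gene also takes in exons that a deletion leaves in place. The 6 libraries held 34400841 to 39763233 counts. The ribosomal RNA row took a larger share of counts in every CKO library (0.563% to 0.79%) than in any control (0.126% to 0.522%), and this share was also fitted as a covariate. Because the share separates the groups, this fit cannot tell its effect from that of the group. In it the SE of Itgav rose from 0.06 to 0.09, and a call lost there cannot be assigned to either. The Y-linked transcript Ddx3y had 0 counts in control 2 and 1153 to 2626 in the others, and Xist, the transcript of the silenced X chromosome, had 7 and 4 counts in the library labelled CKO 2 and in CKO 3 against 15232 to 36330 in the other 4. These sex-linked transcripts set the 3 libraries apart. Controls 1 and 3 and CKO 1 had both transcripts and so hold RNA of both sexes. Y-linked expression was fitted as a second covariate. Ddx3y was absent in control 2 alone, so this fit mainly sets control 2 apart and does not follow the low Xist. It gave a log2 fold change of 0.33 for Itgav, as did the fit without control 2. A call kept or lost in it is therefore no full account of sex. Markers of the labelled tissue were high: 8 cardiomyocyte markers summed to between 26584 and 29393 CPM, while the foregut markers summed to at most 1.96 CPM.

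Subunit transcripts spanned more than 4 orders of magnitude per kilobase of exon, and a few chains made up most of each class. Itgb1, which encodes the beta chain shared by most matrix-binding integrins, stood first at 273 ± 4.81 CPM per kilobase in controls and accounted for 80.4% of the summed integrin beta level (SD and n = 3 per group here and below). Itgb5 supplied 17.1%, and the other 6 beta genes shared the rest. Among alpha genes Itga5, the fibronectin receptor chain, supplied 40.3% and Itga6, a laminin receptor chain, 24.2%. Lamc1 supplied 95.5% of the gamma level, Lamb1 67.4% and Lamb2 32.0% of the beta level, and Lama4 62.7% and Lama5 26.3% of the alpha level. These are the chains of the vascular laminins that hold alpha 4 or alpha 5 together with beta 1 or beta 2 and gamma 1. Per kilobase, the highest chain of each laminin class thus differed, with gamma 1 at 114, beta 1 at 67.0 and alpha 4 at 41.5 CPM in controls. The length used is that of all annotated exons of a gene merged, which can exceed the transcript expressed here. Levels per kilobase and shares between genes depend on it.

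**Figure D1:**
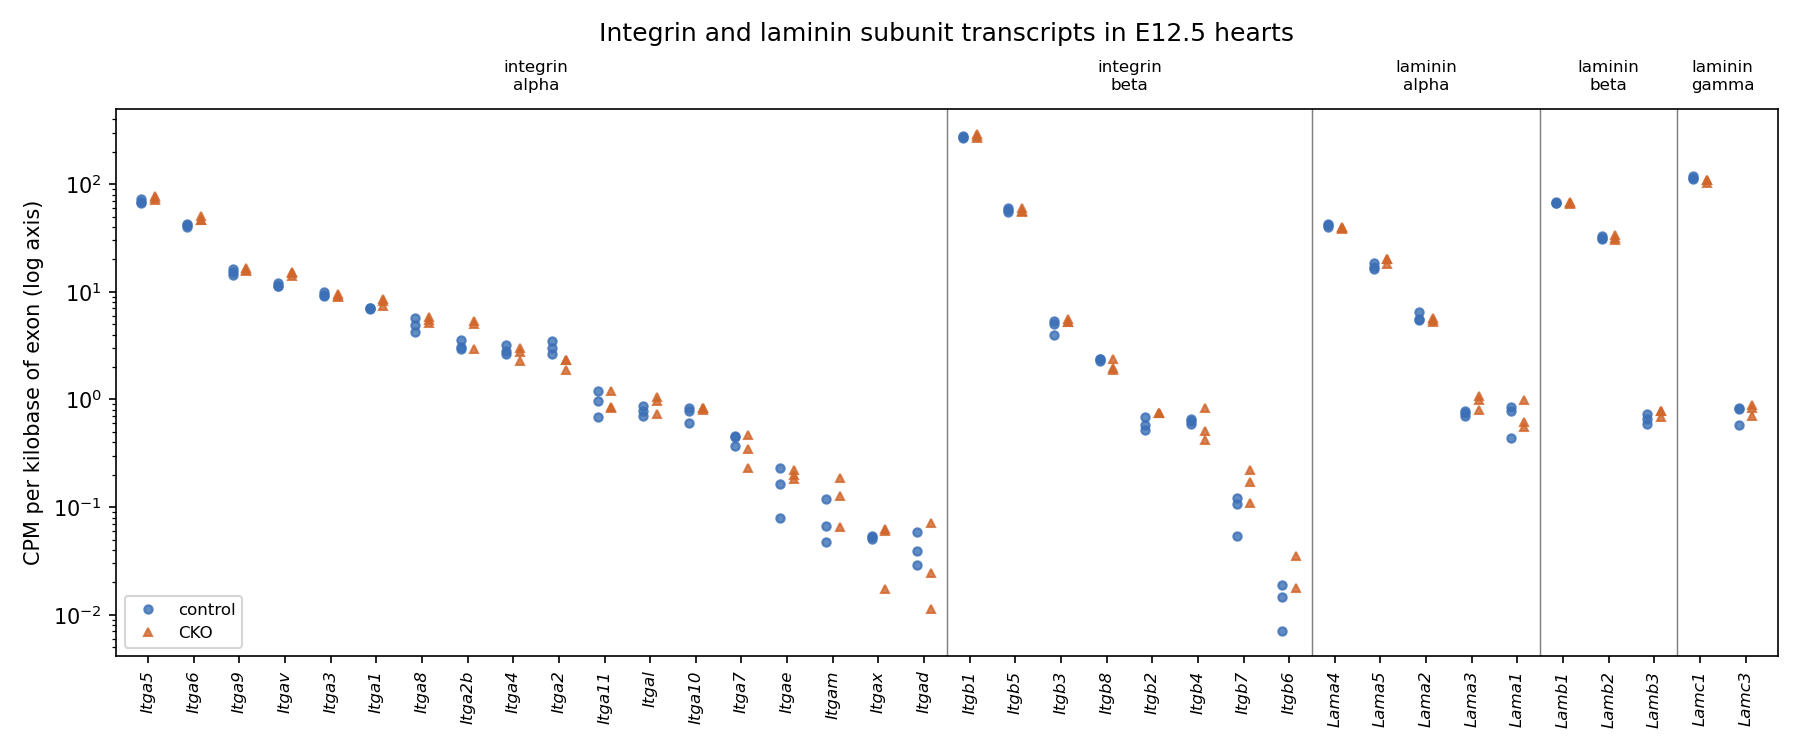
Level of each of 36 subunit transcripts in each library, as CPM per kilobase of exon on a log axis, grouped by chain class and ordered by mean level; circles are the 3 control libraries and triangles the 3 CKO libraries. Itgb1, Lamc1, Itga5, Lamb1 and Lama4 stand at the top of their classes in both groups, and a CKO library at 0 counts for Itgb6 cannot be drawn on the log axis.

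Of the 37 genes, 34 had enough counts to be tested, and 3 were called at an adjusted p under 0.05. Itgav and Itga6 rose in CKO, Itga2 fell, and all 3 are integrin alpha genes. Across all 17557 genes tested, the same fit called 4.1%, with 3.03% higher and 1.07% lower. With 34 genes, counts of 2 and 1 are too few to set the families apart from that background. No laminin gene was called among the 11 tested, of which Lama5 and Lama3 had an unadjusted p under 0.05 (edgeR). DESeq2 and limma-voom likewise called no laminin gene. Of the 34 genes, 21 had a positive and 13 a negative log2 fold change, with a median of 0.09 against 0.00 over all genes tested. The median was 0.14 for the 23 integrin genes and -0.00 for the 11 laminin genes. An unadjusted p under 0.05 was reached by 7 of the 34, against 17.8% of all genes, and the control and CKO libraries did not overlap for 8 of the 34, against 22.1% of all genes. Both shares are near that background.

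**Figure D2:**
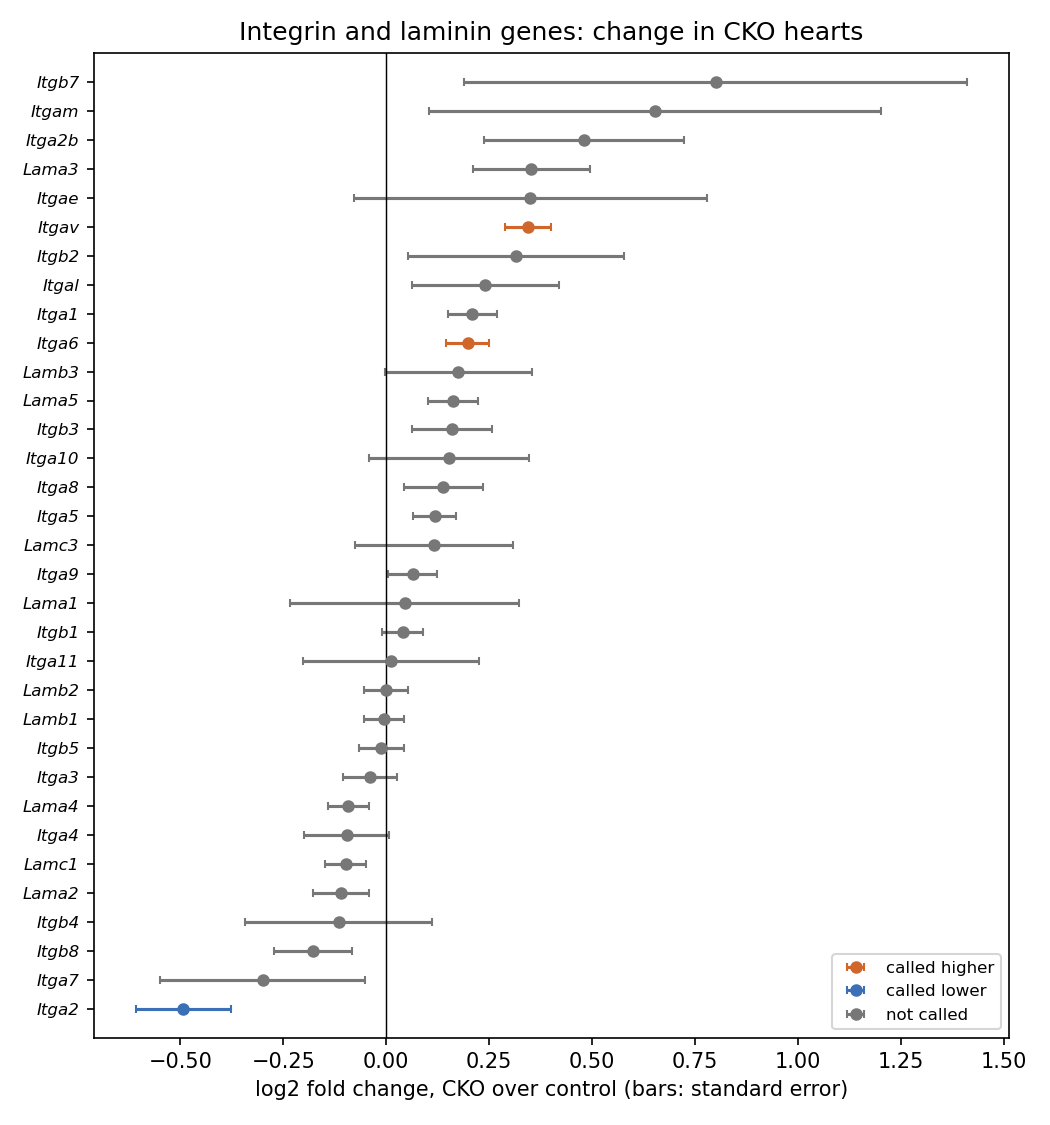
Log2 fold change of 33 tested subunit genes, CKO over control, with bars of 1 SE (n = 3 libraries per group); orange and blue mark genes called higher or lower by edgeR, grey marks those not called. Itgav and Itga6 lie to the right and Itga2 to the left with short bars, while the largest grey values, Itgb7 and Itgam, have the widest bars.

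The clearest change was that of Itgav, which encodes the alpha V chain of the receptors for vitronectin, fibronectin and latent TGF-beta (chromosome 2, 83724397 to 83806916, plus strand). It was measured at 122, 123 and 129 CPM in controls and at 160, 150 and 165 CPM in CKO. Every CKO library lay above every control, and the library labelled CKO 2 was the lowest of the 3. The mean rose by 26.9% (log2 fold change 0.34, SE 0.06, edgeR adjusted p = 0.0011). Its share of the summed alpha level per kilobase went from 6.77% ± 0.139 to 7.80% ± 0.325. Leaving out each library in turn kept the call 6 of 6 times (highest adjusted p 0.0171), as did a fit with Y-linked expression as a covariate (adjusted p = 0.0242). With the ribosomal RNA share as a covariate the log2 fold change was 0.41 and the adjusted p 0.0684. The antisense gene Gm13684, which overlaps Itgav, had 0 to 5 counts.

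Itgav pairs with several beta chains, and those that encode its partners did not pass the test. Itgb5, the second beta gene by level, was at 197, 214 and 206 CPM in controls and at 214, 196 and 201 CPM in CKO. The groups overlapped fully (log2 fold change -0.01, SE 0.05). Itgb3, also the beta chain of the platelet fibrinogen receptor, was at 23.5, 29.6 and 31.8 CPM in controls and at 31.3, 32.9 and 30.6 CPM in CKO (log2 fold change 0.16, SE 0.10, edgeR adjusted p = 0.42). Itgb8, a beta chain that pairs with alpha V alone, was at 25.4 to 26.3 CPM in controls and at 20.8, 26.4 and 21.7 CPM in CKO (log2 fold change -0.18, SE 0.10). Itgb6, the epithelial partner of alpha V, had 0 to 9 counts per library and was not tested. Itgb1, which also pairs with alpha V, was at 1113, 1093 and 1132 CPM in controls and at 1191, 1099 and 1142 CPM in CKO (log2 fold change 0.04, SE 0.05, edgeR adjusted p = 0.75). Its groups overlapped.

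The other alpha chains of receptors that recognise the RGD peptide of fibronectin and related ligands all had positive values without being called. Itga5 was at 334, 357 and 331 CPM in controls and at 370, 352 and 386 CPM in CKO. The library labelled CKO 2 lay below control 2, so the groups overlapped (log2 fold change 0.12, SE 0.05, edgeR adjusted p = 0.25). Itga8, the nephronectin receptor chain, was at 31.1 to 42.4 CPM in controls and 37.7 to 42.9 CPM in CKO (log2 fold change 0.14, SE 0.10). Itga2b, the platelet chain of this group, had the largest value of the 4 and is given with the blood cell integrins.

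Itga6 encodes the alpha 6 chain, a receptor chain for laminins (chromosome 2, 71745616 to 71858416, plus strand). It was measured at 360, 376 and 386 CPM in controls and at 419, 452 and 416 CPM in CKO. All 3 CKO libraries were above all controls, with the library labelled CKO 2 the highest. The mean rose by 14.7% (log2 fold change 0.20, SE 0.05, edgeR adjusted p = 0.037). This call was held by 1 of the 6 fits with a library left out, the one without CKO 1 (adjusted p = 0.0332), and the other 5 gave adjusted p values of 0.0572 to 0.212. It was not called with the ribosomal RNA share (adjusted p = 0.309) or with Y-linked expression (0.187) as a covariate. Its log2 fold change stayed between 0.16 and 0.26 in these fits.

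The remaining laminin receptor chains did not pass the test. Itga3, whose product binds laminins with an alpha 5 chain, was at 52.6, 52.8 and 57.1 CPM in controls and at 51.1, 52.2 and 54.8 CPM in CKO (log2 fold change -0.04, SE 0.07). Itga7, the main laminin receptor chain of mature muscle, was low in these libraries. It was at 3.69, 3.01 and 3.63 CPM in controls and at 1.85, 3.78 and 2.80 CPM in CKO. The library labelled CKO 2 was the highest of the 6 libraries and CKO 1 the lowest, so no direction could be read (log2 fold change -0.30, SE 0.25). Itgb4, the hemidesmosome partner of alpha 6, was at 2.96 to 5.84 CPM, and both its extremes were CKO libraries (log2 fold change -0.12, SE 0.23).

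Itga2 and Itga1 encode 2 collagen receptor chains that pair with beta 1, and the genes are neighbours on the minus strand of chromosome 13. Itga2 (114833081 to 114932100) was measured at 21.6, 19.1 and 24.9 CPM in controls and at 13.4, 16.5 and 16.6 CPM in CKO. Every CKO library was below every control, and the narrowest gap was that between CKO 3 and control 2. The mean fell by 29.0% (log2 fold change -0.49, SE 0.12, edgeR adjusted p = 0.018). The call was lost without control 1 (adjusted p = 0.0659), control 3 (0.134) or CKO 1 (0.0699) and with the ribosomal RNA share as a covariate (log2 fold change -0.34, adjusted p = 0.607). It was kept with Y-linked expression as a covariate (adjusted p = 0.014).

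Itga1 (114953096 to 115101964) had the opposite sign. It was at 131, 130 and 128 CPM in controls and at 138, 154 and 159 CPM in CKO. The groups did not overlap, and CKO 1 was nearest to the controls. The log2 fold change was 0.21 (SE 0.06), with an adjusted p of 0.051 by edgeR, just outside the threshold, and of 0.0242 by DESeq2. Limma-voom gave 0.0665. Without CKO 1 the edgeR adjusted p was 0.0082, and the other 5 fits with a library left out gave 0.0513 to 0.289. With the ribosomal RNA share or Y-linked expression as a covariate it was 0.540 or 0.251. A predicted gene that overlaps Itga1, Gm49395, had 10 to 25 counts. The difference between the values of the neighbouring genes was not tested. The other collagen receptor chains were low and overlapped between groups: Itga11, a chain of fibroblasts, was at 3.53 to 6.17 CPM (log2 fold change 0.01, SE 0.21), and Itga10, a chain of cartilage, at 3.14 to 4.32 CPM (0.15, SE 0.19).

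**Figure D3:**
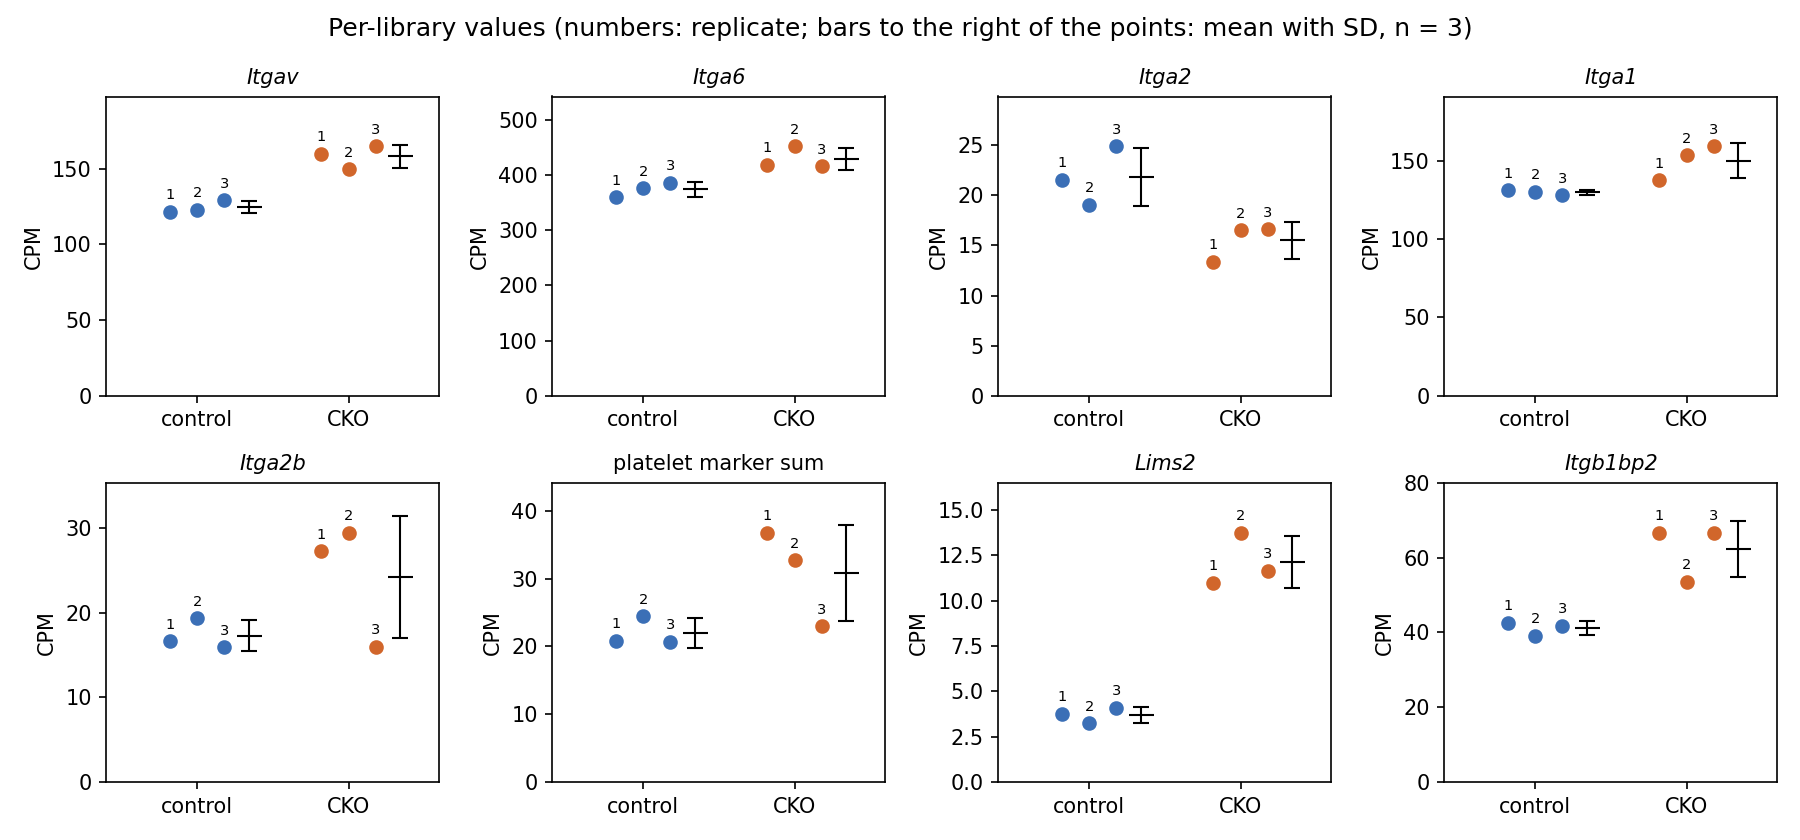
CPM in each library (points, numbered by replicate, with group mean and SD, n = 3, drawn beside them; axes start at 0) for Itgav, Itga6, Itga2, Itga1, Itga2b, the sum of the platelet and megakaryocyte markers, Lims2 and Itgb1bp2. The groups are apart for Itgav, Itga6, Itga2, Itga1, Lims2 and Itgb1bp2, while CKO 3 falls among the controls for Itga2b and the platelet sum.

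The 250 bases upstream of the annotated starts of Itgav, Itga2 and Itga1 are shown because these 3 genes had opposite signs or adjoining positions. Sequences are from RefSeq (build GRCm38.p6), read 5′ to 3′ on the gene's strand, with each CpG in capitals, the dinucleotide on which DNA methylation acts. The window is chr2:83724147-83724396 (plus) for Itgav, chr13:114932101-114932350 (minus) for Itga2 and chr13:115101965-115102214 (minus) for Itga1.
Itgav: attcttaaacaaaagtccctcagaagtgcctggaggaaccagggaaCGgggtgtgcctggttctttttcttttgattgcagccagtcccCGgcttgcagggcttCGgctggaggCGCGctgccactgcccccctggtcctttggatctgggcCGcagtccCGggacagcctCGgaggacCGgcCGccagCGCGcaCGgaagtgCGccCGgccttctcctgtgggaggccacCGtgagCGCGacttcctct
Itga2: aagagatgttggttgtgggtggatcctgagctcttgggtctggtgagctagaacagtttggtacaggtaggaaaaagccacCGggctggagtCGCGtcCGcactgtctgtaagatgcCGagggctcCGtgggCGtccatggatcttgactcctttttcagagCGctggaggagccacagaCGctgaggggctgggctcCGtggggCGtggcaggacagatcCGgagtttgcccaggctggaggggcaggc
Itga1: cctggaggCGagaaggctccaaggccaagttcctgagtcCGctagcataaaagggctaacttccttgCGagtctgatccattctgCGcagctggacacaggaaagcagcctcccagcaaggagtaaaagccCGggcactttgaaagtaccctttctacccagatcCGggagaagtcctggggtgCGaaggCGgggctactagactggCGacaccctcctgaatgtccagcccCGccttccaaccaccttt
These windows hold 18 CpG for Itgav, 12 for Itga2 and 10 for Itga1. Of the 37 genes, 23 had a promoter entry (26 entries) and Itga6 had none. Over the full entries of 300 bases (250 before and 50 after the start), the median was 11 CpG for the 26 entries and 7 for all 32851. The letters of a GC box, GGGCGG on either strand, were found in 12 of the 26 entries and in 35.7% of all entries, with 1 match each for Itgav and Itga2 and 0 for Itga1. The letters GGAATG, of the TEAD motif, were in 3 of 26 (14.7% of all), and TGANTCA, of the AP-1 motif, in 3 of 26 (7.81% of all), neither in the 3 genes shown. Such matches describe letters, not binding. No measurement of methylation or binding accompanied these libraries.

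Integrin alpha chains for other matrix ligands were not called. Itga4, a receptor chain for VCAM1 and fibronectin that epicardial cells need for their attachment, was at 39.2, 36.8 and 44.6 CPM in controls and at 39.0, 42.5 and 31.5 CPM in CKO. CKO 3 was the lowest and control 3 the highest (log2 fold change -0.10, SE 0.10). Itga9, a chain that binds tenascin and fibronectin's EDA segment, was at 111, 117 and 126 CPM in controls and at 127, 119 and 124 CPM in CKO (log2 fold change 0.06, SE 0.06).

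Integrin genes of blood cells were low, and macrophage and platelet markers, though not red cell markers, had positive values beside them. The 7 leukocyte integrin genes summed to 1.72 to 1.94 CPM per kilobase in controls and to 2.19 to 2.30 in CKO. All 5 that were tested had positive values (Itgal 0.24, Itgb2 0.32, Itgae 0.35, Itgam 0.65, Itgb7 0.80 on the log2 scale), with SEs of 0.18 to 0.61, and none was called. With the ribosomal RNA share as a covariate Itgae was at -0.13 and Itgam at 0.01, and with Y-linked expression Itgae was at -0.071. Itgb2, the beta chain common to most leukocyte integrins, was at 1.78, 2.10 and 1.58 CPM in controls and at 2.26, 2.27 and 2.27 CPM in CKO, with no overlap and an edgeR adjusted p of 0.59. Itgax and Itgad, chains of myeloid cells, had 3 to 12 and 2 to 11 counts and were not tested. Of 12 macrophage markers, 12 had positive values, though that of Mrc1 was 0.0001. Called higher were 4 (C1qa, C1qb, C1qc and Laptm5), against 3.03% of all genes. The sum of the 12 markers was 115 to 121 CPM in controls and 140 to 156 CPM in CKO. The 5 red cell markers all had negative values and none was called, with sums of 275 to 467 CPM in controls and 242 to 297 CPM in CKO. In bulk tissue, more cells of a type and more RNA per cell cannot be told apart, and the part of these cells in the integrin values was not tested.

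Itga2b encodes the platelet chain alpha IIb. It was at 16.6, 19.3 and 15.9 CPM in controls and at 27.2, 29.4 and 16.0 CPM in CKO. CKO 1 and the library labelled CKO 2 were above all controls and CKO 3 among them (log2 fold change 0.48, SE 0.24, edgeR adjusted p = 0.39). Without CKO 3 the log2 fold change was 0.71 and the adjusted p 0.0022, and the other 5 fits with a library left out gave 0.466 to 0.642. The 9 platelet and megakaryocyte markers summed to 20.8, 24.5 and 20.6 CPM in controls and to 36.8, 32.7 and 23.0 CPM in CKO, with CKO 3 again the lowest of its group. All 8 tested markers had positive values and none was called, while Gp1bb had at most 3 counts. The part of platelets in the Itga2b value was not tested.

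The laminin alpha chains of vascular and muscle basement membranes were not called. Lama4, the alpha chain of endothelial basement membranes, was at 500, 519 and 484 CPM in controls and at 460, 481 and 468 CPM in CKO. The CKO libraries were all lower and the test did not call it (log2 fold change -0.09, SE 0.05, edgeR adjusted p = 0.35). Lama5, the other widespread alpha chain, was at 187, 195 and 212 CPM in controls and at 205, 231 and 231 CPM in CKO. CKO 1 lay below control 3 (log2 fold change 0.16, SE 0.06, edgeR adjusted p = 0.15). Without CKO 1 its adjusted p was 0.0471, and the other 5 fits with a library left out gave 0.160 to 0.472. It was 0.255 with the ribosomal RNA share and 0.512 with Y-linked expression as a covariate. The share of Lama5 in the summed alpha level per kilobase was 26.3% ± 1.38 in controls and 29.7% ± 1.02 in CKO, and that of Lama4 was 62.7% ± 2.40 and 59.4% ± 1.12. The Lama5 shares did not overlap between the groups and the Lama4 shares did, and the difference in shares was not tested.

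Lama2, the chain of muscle basement membranes, was at 90.0, 92.0 and 107 CPM in controls and at 88.6, 85.5 and 93.2 CPM in CKO (log2 fold change -0.11, SE 0.07). Lama3, an epithelial chain, was low, at 7.55, 8.02 and 8.47 CPM in controls and 8.50, 11.7 and 10.6 CPM in CKO. The groups did not overlap, though control 3 and CKO 1 nearly met (log2 fold change 0.35, SE 0.14, edgeR adjusted p = 0.19). Lama1, the chain of the earliest embryonic basement membranes, was at 4.27 to 9.50 CPM and varied more within groups than between them (log2 fold change 0.04, SE 0.28).

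None of the laminin beta and gamma chains was called by edgeR, DESeq2 or limma-voom. Lamb1 was at 657, 677 and 659 CPM in controls and at 645, 683 and 658 CPM in CKO (log2 fold change -0.00, SE 0.05). Lamb2, the beta chain of mature vessel and muscle laminins, was at 192, 199 and 190 CPM in controls and at 184, 192 and 204 CPM in CKO (log2 fold change -0.00, SE 0.05). For both genes the control libraries lay within the range of the CKO libraries. Lamb3, the beta chain of epithelial laminin, was at 3.95 to 5.14 CPM (log2 fold change 0.18, SE 0.18). Lamc1, the gamma chain of nearly all laminins, was at 928, 937 and 975 CPM in controls and at 844, 909 and 900 CPM in CKO. Every CKO library was lower, and the test did not call it (log2 fold change -0.10, SE 0.05, edgeR adjusted p = 0.32). Lamc3 was at 3.56 to 5.41 CPM (log2 fold change 0.12, SE 0.19).

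Summed per kilobase of exon, the integrin alpha genes stood at 167, 173 and 174 CPM in controls and at 188, 188 and 190 CPM in CKO, with no overlap. The beta genes stood at 336, 337 and 344 against 361, 334 and 345 CPM, and the laminin alpha, beta and gamma sums also overlapped, except for gamma (118, 118 and 124 in controls, 108, 114 and 114 in CKO). The alpha sum is mostly Itga5 and Itga6. How small a change could be seen depended on the level: the SE was 0.05 to 0.06 for the 12 genes with a mean of at least 100 CPM, 0.07 to 0.24 for the 9 genes at 10 to 100 CPM, 0.14 to 0.28 for the 10 genes at 1 to 10 CPM and 0.43 to 0.61 for the 3 genes under 1 CPM. No gene was called in the 2 bands under 10 CPM, where a change of the size seen for Itgav could go undetected. It could also go undetected at 10 to 100 CPM, where Itga2b was not called at a log2 fold change of 0.48 (SE 0.24). In simulated counts the steps recovered 14% of genes changed 1.2-fold and 62% of those changed 1.5-fold.

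The lists of partner and marker genes were chosen with earlier results of these data known. Among ligands of integrins other than laminins, 24 of the 30 genes listed were tested. Of these, 3 rose and 1 fell, against 3.03% and 1.07% of all genes. Only 9 of the 24 had positive values, and the median log2 fold change was -0.05 against 0.00 over all genes. Ccn1 and Ccn2 encode matricellular proteins that bind alpha V and other integrins. Ccn1 was at 45.1, 43.9 and 47.3 CPM in controls and at 66.8, 76.5 and 71.0 CPM in CKO (log2 fold change 0.65, SE 0.07, edgeR adjusted p = 1.8e-05). Ccn2 was at 77.9, 85.6 and 93.2 CPM in controls and at 142, 183 and 142 CPM in CKO (0.86, SE 0.11, edgeR adjusted p = 0.0037). For both genes every CKO library was well above the controls, and both were called in all 6 fits with a library left out and with either covariate. Tgfb3, whose latent form is a ligand of alpha V integrins, also rose (0.48, SE 0.07, edgeR adjusted p = 0.00069) and was called in all 6 such fits but not with the ribosomal RNA share as a covariate (adjusted p = 0.283). Postn, the alpha V ligand periostin, fell (-0.29, SE 0.06, edgeR adjusted p = 0.016). It was named after its value was seen, and its call was lost without control 3 (adjusted p = 0.1004), CKO 1 (0.0864) or CKO 3 (0.0905) and with the ribosomal RNA share as a covariate (0.820). Fn1, the fibronectin gene, was at 2534 to 2903 CPM with a log2 fold change of 0.02 (SE 0.05).

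The partners of laminin in the basement membrane did not pass the test, with 0 of 14 called by edgeR. At an unadjusted p under 0.05 there were 4, and the smallest adjusted p values were those of Ntn4, a netrin that binds laminin gamma chains (-0.44, SE 0.13, adjusted p = 0.059), Col18a1 (-0.21, SE 0.06, 0.073) and Col4a3 (-1.01, SE 0.35, 0.12). DESeq2 called Ntn4 and Col18a1. Of 17 genes of other laminin receptors and the dystroglycan complex, 2 rose and 1 fell, against 3.03% and 1.07% of all genes. Positive values were found for 8 of the 17, with a median log2 fold change of -0.02. Dag1, the gene of the laminin receptor dystroglycan, was at 630, 639 and 642 CPM in controls and at 770, 701 and 767 CPM in CKO (0.23, SE 0.05, edgeR adjusted p = 0.014). Its call rests on few libraries. Of the 6 fits with a library left out, Dag1 was called in 2 (without CKO 1 or the library labelled CKO 2), with adjusted p values up to 0.114 in the others, and it was not called with either covariate.

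On the cytoplasmic side, 8 of the 41 tested genes of integrin activators and the adhesion plaque rose and 0 fell, against 3.03% and 1.07% of all genes. Of the 41, 32 had positive values, and the median log2 fold change was 0.10 against 0.00 over all genes. This list too was chosen with earlier results of these data known, so its counts are no test against that background. Whether this list differs from the subunits was not tested. Lims2, which encodes the LIM-domain protein PINCH-2 of the plaque, was at 3.76, 3.25 and 4.09 CPM in controls and at 11.0, 13.7 and 11.6 CPM in CKO (log2 fold change 1.71, SE 0.16, edgeR adjusted p = 5.2e-06). Its close relative Lims1 was at 184 to 195 CPM (log2 fold change 0.00, SE 0.05). Itgb1bp2, the gene of melusin, a striated muscle protein that binds the beta 1 tail, was at 42.6, 39.1 and 41.8 CPM in controls and at 66.7, 53.5 and 66.7 CPM in CKO (0.60, SE 0.08, edgeR adjusted p = 0.00026). Both were called in all 6 fits with a library left out and with Y-linked expression as a covariate. With the ribosomal RNA share, Lims2 was called (adjusted p = 0.0062) and Itgb1bp2 was not (0.0965).

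Bcar1, the gene of the docking protein p130Cas, rose less (0.32, SE 0.06, edgeR adjusted p = 0.0038) and lost its call without control 1 (adjusted p = 0.0512). The other 5 called genes were named after their values were seen: Tgfb1i1 (0.30), which encodes the paxillin relative Hic-5, Vasp (0.26), an actin filament elongator, Actn1 (0.25) and Actn4 (0.20), which encode the alpha-actinins, and Flnc (0.19), the muscle filamin gene. Of the 6 fits with a library left out, Tgfb1i1 was called in 5, Vasp in 4, Actn1 in 3, and Actn4 and Flnc in 2 each. Leaving out 1 library at a time gave 3 to 10 plaque genes called higher (3 without CKO 3, 4 without control 1, 5 without control 3, 10 without the library labelled CKO 2) and 0 called lower, except for 2 without the library labelled CKO 2 (Tns2 and Kank1, named after their values were seen), and the covariates left 1 (ribosomal RNA share) or 4 (Y-linked expression) higher. DESeq2 called 11 higher and 1 lower. Core genes of the plaque were not called: the log2 fold change was 0.14 for Tln1 (talin), 0.03 for Fermt2 (kindlin-2), -0.05 for Ptk2 (focal adhesion kinase), 0.07 for Vcl (vinculin) and -0.10 for Pxn (paxillin), with SEs of 0.05 to 0.06. Ilk, the integrin-linked kinase gene, was counted at 0.641 to 1.42 CPM only. It overlaps Taf10 on the opposite strand, and whether the counting used strand is not given, so its level is uncertain.

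**Figure D4:**
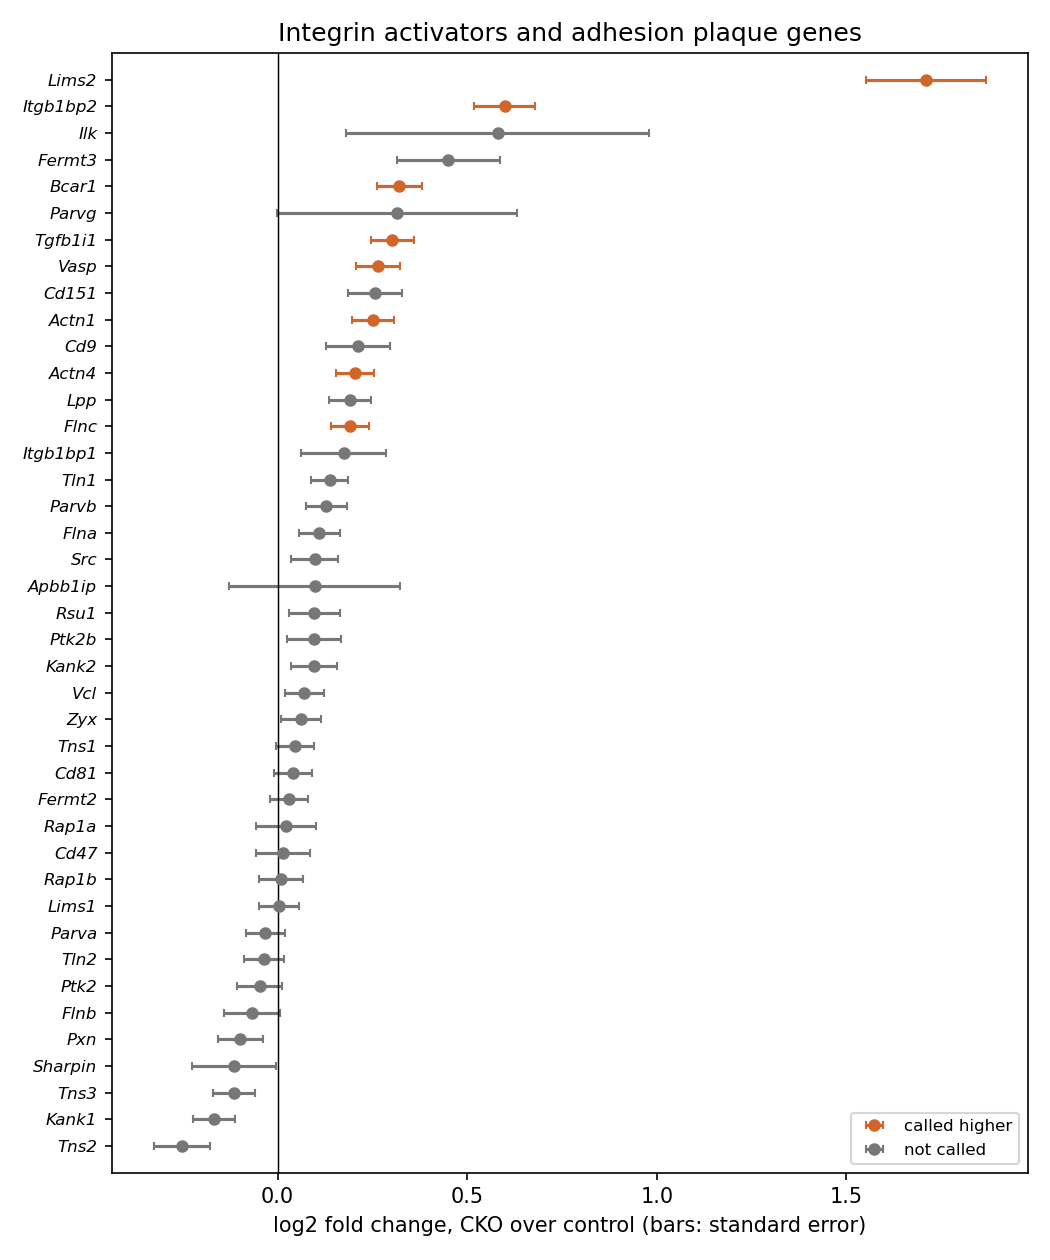
Log2 fold change of the 41 tested integrin activator and adhesion plaque genes, CKO over control, with bars of 1 SE (n = 3 libraries per group); orange marks the 8 genes called higher by edgeR. Lims2 stands far to the right at 1.71, Itgb1bp2 follows at 0.60, and most of the others lie between -0.3 and 0.5.

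Several of the cell types that express these genes had shifted markers. Across all genes tested, 3.03% were called higher and 1.07% lower. The 6 smooth muscle markers summed to 1607 to 1637 CPM in controls and to 2247 to 2714 CPM in CKO, and 3 were called higher (Acta2, Myh11 and Cnn1). Acta2 (mean 1208 CPM in controls, 1891 in CKO) and Cnn1 (311 and 430) made up most of the sum. The means were 4.40 and 13.6 CPM for Myh11 and 1.37 and 2.06 CPM for Tagln, and Smtn had a log2 fold change of 0.05. Bulk counts do not show which cells these transcripts came from, so the sum need not follow smooth muscle cells alone. The 9 endothelial markers summed to 1376 to 1423 CPM in controls and to 1132 to 1339 CPM in CKO, and 3 were called lower (Tek, Cdh5 and Kdr). In the library labelled CKO 2 the endothelial sum was the nearest to the controls, as was its Trim28 level. The macrophage (140 CPM) and cardiomyocyte (28518 CPM) sums were also nearest there. By contrast, the smooth muscle sum was nearest in CKO 1 (2247 CPM) and the platelet sum in CKO 3 (23.0 CPM). Among single genes, Itgav and Itgb1bp2 were nearest to the controls in the library labelled CKO 2, while Lims2, Ccn1 and Ccn2 were furthest. Of 8 cardiomyocyte markers 2 were called higher (Myl7 and Myh6), of 9 epicardial markers 1 (Krt19), and of 5 tested glial and neural crest markers 1 was called lower (Erbb3). None was called among the skeletal muscle, foregut and red cell markers by edgeR. The part of these cell types in the values of Itgav, Itga6, Itga2, Lims2 and the ligands was not tested.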

How the data were processed

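The authors deposited raw read counts per gene symbol for 6 libraries, named as raw counts per the labels, on the mm10 build per the submitters' processing notes. Per the labels' protocols, 500 ng of total RNA entered a NEBNext Ultra library. Aligner, counter, annotation and strand setting: not given in the sources used here. Exons of Itgav, Itga4, Itga7, Itga8, Itgad, Itgb4, Lama2, Lama3 and Lamc3 overlap genes on the opposite strand, so their levels may depend on the strand setting. Column totals were 34400841 to 39763233. Of the symbols, 2017 altered forms were restored from GENCODE M21, which also gave positions and merged exon lengths.

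Counts were tested with edgeR 4.0.16 in R 4.3.3: filterByExpr (minimum count 10, minimum total 15, leaving 17557 genes), TMM factors, robust glmQLFit with group as the only term, two-sided glmQLFTest and Benjamini-Hochberg adjustment over all tested genes, called under 0.05. The steps were tested on simulated data. CPM used TMM-scaled library sizes. Each adjusted p is from edgeR unless limma 3.58.1 or DESeq2 1.42.0 is named.

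Named in full by rule were Trim28, the called subunit genes, the 2 highest per kilobase in each class, and up to 3 genes per partner list with the smallest adjusted p. The members and lists were chosen with earlier results of these data known, and the role groups from textbook roles after values were seen. Alternatives were RLE factors, DESeq2, limma-voom, no robust estimation, other filters, the replicate number as a block, each library left out, and covariates for the ribosomal RNA share or Y-linked expression. A few genes that the rule would name are counted in the totals but not reported here.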

Additional observations from a re-analysis of the deposited data

How the results depend on the processing

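Against 2 subunit genes called higher and 1 lower, no filter on low counts gave 4 higher, Y-linked expression as a covariate 1 higher, the ribosomal RNA share 0 higher and 0 lower, and leaving out 1 library 1 to 4 higher and 0 to 1 lower. Of the partner genes 13 were higher and 2 lower. The ribosomal RNA share gave 3 and 0, Y-linked expression 7 and 1, leaving out 1 library 6 to 17 and 0 to 10, DESeq2 5 lower and no filter 8 lower. Over all genes, 532 were higher and 188 lower. The counts were 863 and 388 with no filter, 266 and 35 with Y-linked expression, 53 and 3 with the ribosomal RNA share, 255 to 1012 and 39 to 540 with 1 library left out, and 311 lower with DESeq2. The cause was not tested. The ribosomal RNA share did not overlap between the groups, so its fit cannot separate the share from the group. An edgeR legacy fit, added after the data were seen, called 3 higher and 1 lower subunit genes and 540 and 201 genes in all.

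The replicate numbers shared by the labels did not pair the libraries (correlations of same-numbered deviations -0.0022, 0.0167 and 0.0014). With the replicate number as a block, 1 subunit gene was higher and 1 lower (Itga6 adjusted p = 0.0574, Itgav 0.0024), 11 and 3 partner genes and 518 and 158 genes in all.

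Of 795 refits of 50 named genes under 16 settings, 698 kept direction and side of the threshold, 52 lost and 17 gained a call, and 28 changed sign. Their lowest adjusted p was 0.642, and no called gene was among them. With the ribosomal RNA share, log2 fold changes were 0.049 for Itga3, 0.0060 for Lamb1, -0.13 for Itgae, 0.059 for Lama2, 0.025 for Itgb5 and 0.019 for Lamb2. With Y-linked expression they were 0.0092 for Lamb1, -0.071 for Itgae, 0.033 for Itgb5, -0.11 for Lamc3, -0.22 for Itga11, 0.020 for Lamb2 and -0.014 for Itga10. With at least 1 CPM in 3 libraries Lamb2 was at 0.000525. Leaving out 1 library gave -0.23 to 0.22 for Lama1, -0.029 to 0.0068 for Lamb1, -0.055 to 0.015 for Itgb5, -0.033 to 0.20 for Lamc3, -0.18 to 0.20 for Itga11, -0.040 to 0.026 for Lamb2, -0.44 to 0.084 for Itgb4 and -0.19 to 0.019 for Itga4.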
